A study of Homo sapiens with 6 samples.

Results

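The genes described here encode the classical axon guidance ligands and their receptors, namely the semaphorins with the plexins and neuropilins, the ephrins with the Eph receptors, the Slits with the Robos, and the netrins with DCC and the UNC5 receptors. They were chosen by gene symbol from the 62696 genes in the count files, and 71 genes matched. NRP1 and NRP2 were kept although their symbols end like those of pseudogenes. UNC50 and UNC5CL matched by their letters only, are not netrin receptors, and left 69 guidance genes. Of these, 35 encode ligands and 34 encode receptors.

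RNA-Seq had been done on DMS53, an established small cell lung cancer (SCLC) line with neuroendocrine (NE) features. Control cells carried an empty lentiviral vector with a green fluorescent protein (mGFP) and a puromycin resistance gene, and OC2-OE cells carried the same vector with ONECUT2 (OC2), a homeodomain transcription factor, fused to mGFP. All cells were selected with puromycin and were cultured alike, and each group had 3 libraries from experiments described as independent. No source states whether the 3 came from separate transductions, so the p-values measure the spread between these libraries. The comparison of both groups asks which transcripts differ when OC2 is enforced in an SCLC line with NE features.

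The libraries held between 16533284 and 19099337 counted read pairs. ONECUT2, which checks the labels, was at 24.2 to 24.9 CPM (counts scaled by library size with TMM factors) in the control libraries and at 3863 to 3994 CPM in the OC2-OE libraries, with transgene and endogenous reads in the same count. Of 9 NE markers all were detected, and their summed level was 3592 to 3633 CPM in control and 4608 to 4657 CPM in OC2-OE, of which SCG2 alone made up 801 and 2273 CPM on average. Of the 9 markers 3 rose and 5 fell, with log2 fold changes of -1.93 for INSM1 and -2.52 for DDC among those that fell. Markers of other cell types were low. The 7 endothelial markers summed to 7.38 to 8.72 CPM in control and 3.35 to 4.67 CPM in OC2-OE, with 4 of them under 30 counts in all 6 libraries together. The 7 fibroblast markers summed to 22.5 to 25.4 CPM and 28.5 to 32.4 CPM, with COL1A1 carrying most of it, and the 6 leukocyte markers to 3.37 to 4.18 CPM and 5.77 to 6.64 CPM, with CD3E at 0 counts and PTPRC at 3. CD14 carried most of the leukocyte sum, at 3.60 and 5.86 CPM on average, and rose (log2 fold change 0.71, adjusted p = 1.50e-05). The part of these shifts in the results was not tested. RNA was taken from whole cultures, in which fewer cells of a type and less RNA per cell cannot be told apart.

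Semaphorins are secreted or membrane proteins that signal through plexins, for which neuropilins serve as ligand-binding partners of the secreted class 3. Ephrins are held at the cell surface, by a lipid anchor in the A group and by a transmembrane segment in the B group, and Eph receptor tyrosine kinases on neighbouring cells read them at contact. Slits are secreted repellents read by Robos, and netrins attract through DCC and repel through UNC5 receptors. The same proteins act outside the nervous system in vessel patterning, epithelial contacts and tumor cell migration.

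Of the 71 genes, 57 had enough counts to be tested, and 46 of these passed an adjusted p under 0.001 in the quasi-likelihood test of edgeR, adjusted by Benjamini-Hochberg over all 17307 genes tested. Of all genes tested, 56.5% passed, which is the background against which the 46 of 57 (80.7%) stand. In OC2-OE cells 24 of the matched genes rose and 22 fell, and without UNC50 and UNC5CL 23 rose and 22 fell of 55 tested, where 27.8% of all genes tested rose and 28.7% fell. A call with a log2 fold change of 1 or more in size was reached by 24 genes, 13 higher and 11 lower, against a background of 17.3%. Values of the 3 control and the 3 OC2-OE libraries did not overlap for 49 of 57 genes (86.0%), against 73.2% of all genes tested. The median log2 fold change was 0.09, close to the 0.01 of all genes tested, whereas the median absolute log2 fold change was 0.85, against 0.38. The matched genes thus moved in both directions. EFNA4 and EPHB4 met the minimum count in every OC2-OE library but not in every control library. PLXNA4 met it in every control library but not in every OC2-OE library. The place of these 3 among the tested genes thus rests in part on the group in which they were high.

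**Figure D1:**
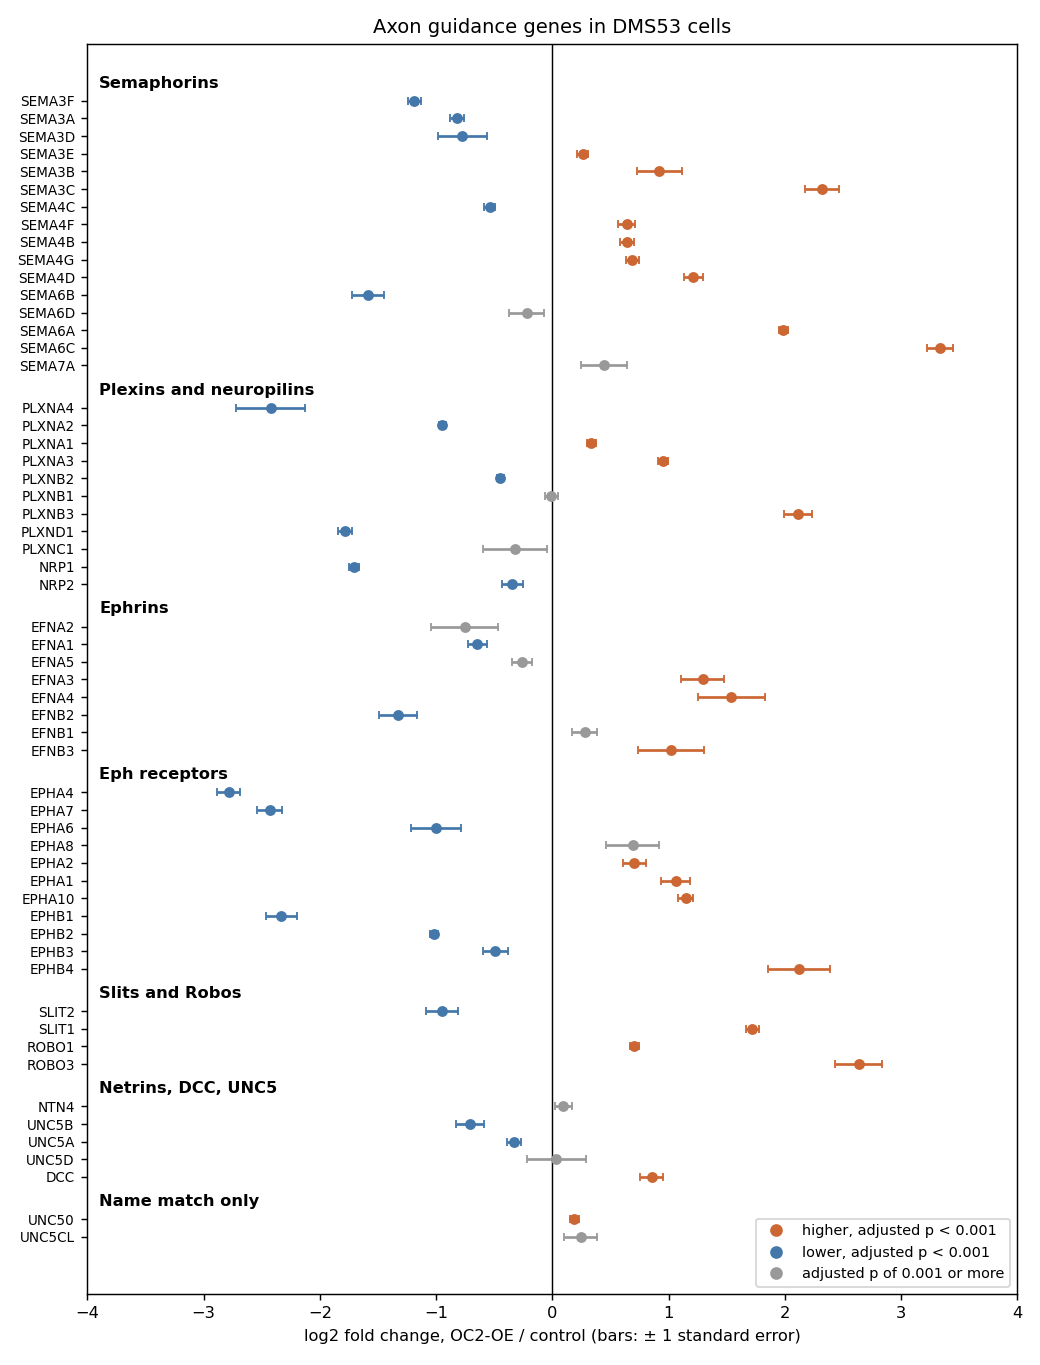
Log2 fold change of OC2-OE over control (x axis, bars are 1 standard error) for the 57 tested genes, UNC50 and UNC5CL included, grouped by family (y axis), with genes higher, lower or not passing in different colors. Semaphorins, plexins, ephrins and Eph receptors each have genes on both sides of 0, from EPHA4 at -2.78 to SEMA6C at 3.34.

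Ligands and receptors were counted apart, and the difference between their counts was not tested. Of 27 tested ligands, 13 rose and 8 fell. Of 28 tested receptors, 10 rose and 14 fell. Of all genes tested 27.8% rose and 28.7% fell, and the share of ligands that fell is near that background. To compare levels between genes, CPM were divided by exon length, and the resulting CPM per kb were summed over the genes of a system in each library. Summed semaphorin ligands went from 52.5 ± 1.10 CPM per kb (SD, n = 3) in control to 69.8 ± 0.834 CPM per kb (SD, n = 3) in OC2-OE, a ratio of 1.33. Their receptors went the other way, from 83.2 ± 1.72 to 60.9 ± 1.52 CPM per kb, a ratio of 0.732. Summed Eph receptors went from 30.2 ± 0.426 to 21.2 ± 0.968 CPM per kb, a ratio of 0.701. The sum of the ephrins was 17.6 ± 0.304 CPM per kb in control and 16.3 ± 0.675 CPM per kb in OC2-OE, a ratio of 0.930. Slits gave the largest ratio of the 8 sums, from 2.73 ± 0.0653 to 7.10 ± 0.110 CPM per kb, a ratio of 2.60. Robos moved with them, from 5.90 ± 0.143 to 10.3 ± 0.0849 CPM per kb, a ratio of 1.74. Netrins were at 4.49 ± 0.233 and 4.76 ± 0.195 CPM per kb, and DCC with the UNC5 receptors at 8.97 ± 0.333 and 7.59 ± 0.363 CPM per kb, ratios of 1.06 and 0.847. A sum is carried by its most abundant genes, which are described next.

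**Figure D2:**
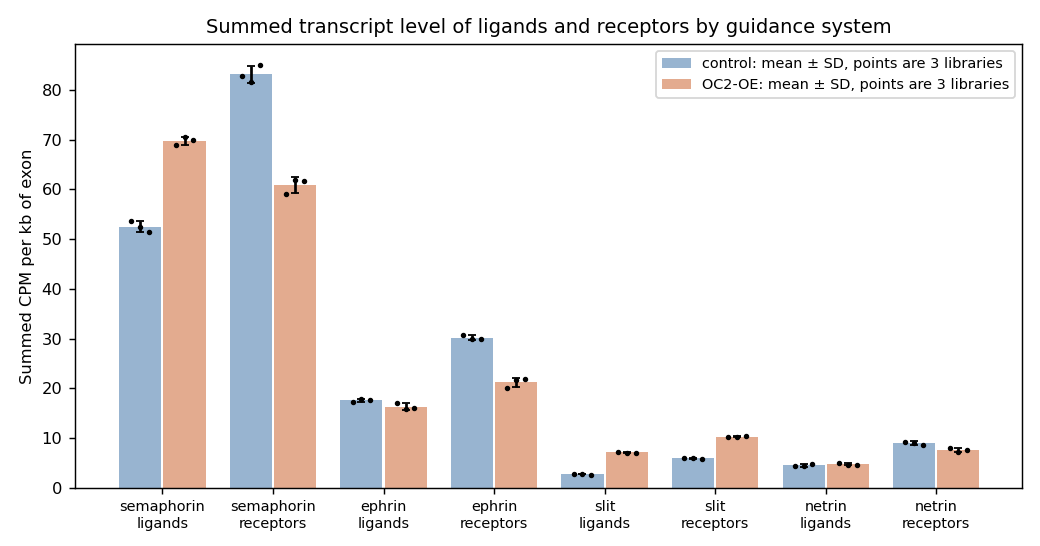
Summed CPM per kb of exon (y axis) of the ligands and the receptors of the 4 guidance systems (x axis) in control and OC2-OE, where bars are means, error bars SD and points the 3 libraries. Semaphorin ligands and Slits stand higher in OC2-OE, and semaphorin receptors and Eph receptors stand lower, with no overlap of libraries.

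Among the semaphorins, 16 of 20 genes were tested, of which 9 rose and 5 fell. The part that fell is near the background of 28.7% of all genes tested, of which 27.8% rose. The same background applies to the counts by class below. The transmembrane class 6 semaphorins, which bind class A plexins directly, held the largest rise, that of SEMA6C. SEMA6A (ENSG00000092421.17, chromosome 5, 116443555 to 116574823 on GRCh38) was at 50.5, 53.4 and 53.01 CPM in control replicates 1, 2 and 3 and at 206, 209.96 and 206 CPM in OC2-OE replicates 1, 2 and 3. Every OC2-OE library lay far above every control library. Its fold change was 3.97, a log2 fold change of 1.99 (standard error, SE, 0.04, adjusted p = 1.16e-83), and on a per-length scale it became the most abundant semaphorin, from 4.80 to 19.0 CPM per kb. SEMA6C (ENSG00000143434.17, chromosome 1, 151131685 to 151146631) was low in control, at 2.78, 2.75 and 2.09 CPM, and reached 24.6, 24.4 and 28.6 CPM in OC2-OE. This is a 10.1-fold rise (log2 fold change 3.34, SE 0.11, adjusted p = 1.77e-54), the largest of the 57 genes. SEMA6B (chromosome 19, 4542593 to 4581776) moved in the opposite direction, from 9.90, 9.50 and 8.61 CPM to 3.03, 3.12 and 3.18 CPM, a log2 fold change of -1.59 (SE 0.14). SEMA6D did not pass, at 3.94 to 5.86 CPM in control and 4.23 to 4.85 CPM in OC2-OE. Class 6 as a whole went from 7.83 to 24.7 CPM per kb, and the share of SEMA6B in it went from 25.3% to 2.67%.

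Class 3 semaphorins, the secreted ligands that need a neuropilin or, for SEMA3E, plexin D1, split evenly, with 3 of 6 tested genes higher and 3 lower. SEMA3C (chromosome 7, 80742538 to 80922359), known from cardiac outflow tract development, was at 2.41, 1.79 and 2.09 CPM in control and at 9.86, 12.7 and 9.22 CPM in OC2-OE. The groups were far apart, with a rise of 4.996-fold (log2 fold change 2.32, SE 0.15, adjusted p = 1.15e-28). SEMA3F (chromosome 3, 50155045 to 50189075), a NRP2 ligand, had 52.7, 48.8 and 49.9 CPM in control and 22.5, 21.8 and 22.3 CPM in OC2-OE. It fell 2.28-fold (log2 fold change -1.19, SE 0.06, adjusted p = 1.83e-39) with no overlap. SEMA3E (chromosome 7, 83363238 to 83649139) was the most abundant class 3 gene per kb over all libraries, at 58.3, 58.1 and 57.4 CPM in control and 69.0, 70.9 and 68.3 CPM in OC2-OE, a small rise with a log2 fold change of 0.26 (SE 0.04). The leading class 3 transcript per kb thus differed between the groups. SEMA3F made up 46.6% of the class 3 sum in control against 30.5% for SEMA3E, and 25.8% in OC2-OE against 46.0%. SEMA3A, the archetypal growth cone collapsing ligand of NRP1, fell from 35.4 to 39.2 CPM in control to 19.9 to 22.2 CPM in OC2-OE (log2 fold change -0.82). SEMA3B rose with a log2 fold change of 0.92, and its adjusted p of 1.39e-05 became 0.00179 without control replicate 1, with 6.08e-06 to 0.00179 over the 15 other settings of the test. SEMA3D was near the threshold, with a log2 fold change of -0.77 and an adjusted p of 0.000676 that was above 0.001 in 8 of the 15 settings, up to 0.0198 without control replicate 2. Leaving out control replicate 1, OC2-OE replicate 1 or OC2-OE replicate 3 also lost the SEMA3D call, at 0.00116, 0.00814 and 0.00937.

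In class 4, the membrane semaphorins of plexins B, 4 of 5 tested genes rose and SEMA4C fell. SEMA4D (chromosome 9, 89360787 to 89498130), a ligand of plexin B1 also known as CD100 of lymphocytes, was at 11.8, 10.8 and 10.6 CPM in control and at 25.6, 25.9 and 25.9 CPM in OC2-OE. The rise was 2.32-fold (log2 fold change 1.21, SE 0.08, adjusted p = 5.64e-29). SEMA4C (chromosome 2, 96859718 to 96870757), a plexin B2 ligand and the most abundant class 4 gene per kb over all libraries, was at 60.5, 57.4 and 58.6 CPM in control and at 38.4, 42.1 and 41.3 CPM in OC2-OE. Its log2 fold change was -0.54 (SE 0.05), and the groups did not overlap. SEMA4B, SEMA4F and SEMA4G rose by log2 fold changes of 0.64, 0.64 and 0.69. After these shifts SEMA4G, at 32.9% of the class 4 sum, exceeded SEMA4C at 24.5%, where SEMA4C had held 43.4% and SEMA4G 25.0% in control. SEMA7A, which is anchored by a lipid and acts through integrins, was at 2.09 to 2.46 CPM in control and 2.69 to 3.34 CPM in OC2-OE and did not pass (adjusted p = 0.0403). SEMA5A and SEMA5B had 1 and 14 counts over all 6 libraries and were not tested.

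**Figure D3:**
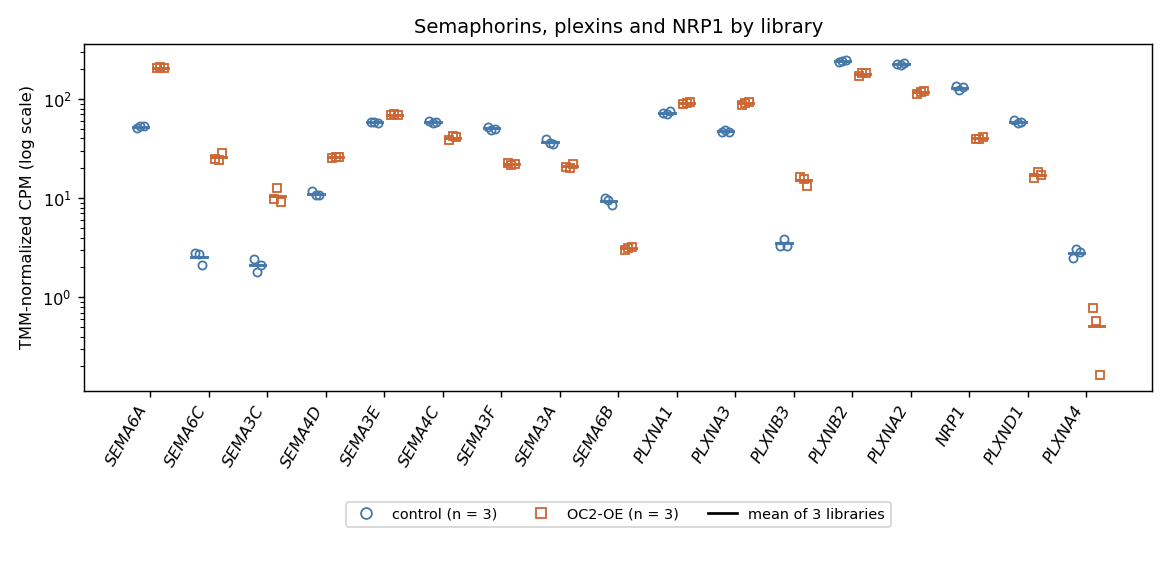
TMM-normalized CPM (y axis, log scale) of 17 semaphorin, plexin and neuropilin genes (x axis) in each control and OC2-OE library, with a line at the mean of 3 libraries. The libraries of both groups separate for every gene drawn, with SEMA6A, SEMA6C, SEMA3C and PLXNB3 higher and NRP1, PLXND1 and PLXNA4 lower in OC2-OE.

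All 11 semaphorin receptor genes were tested, of which 3 rose and 6 fell, where 27.8% of all genes tested rose and 28.7% fell. NRP1 (ENSG00000099250.18, chromosome 10, 33177492 to 33336262), the binding subunit for SEMA3A and a co-receptor for vascular endothelial growth factor (VEGF), was at 135, 123 and 134 CPM in control and at 39.2, 39.9 and 41.2 CPM in OC2-OE. It fell 3.26-fold between the group means, with no overlap (log2 fold change -1.70, SE 0.04, adjusted p = 1.18e-68). NRP2 was less abundant and changed little, from 13.5 to 15.2 CPM in control to 10.8 to 11.6 CPM in OC2-OE. Its log2 fold change of -0.34 passed at an adjusted p of 0.000395 but was above 0.001 in 8 of 15 settings, up to 0.00581. Those 8 included leaving out control replicate 1 (0.00581) or 2 (0.00155) or OC2-OE replicate 1 (0.00186), 2 (0.00127) or 3 (0.00574). PLXND1 (chromosome 3, 129555214 to 129606676), the SEMA3E receptor of endothelium, was at 62.0, 56.7 and 58.5 CPM in control and at 16.1, 18.5 and 16.9 CPM in OC2-OE, a 3.45-fold fall (log2 fold change -1.78, SE 0.06, adjusted p = 5.23e-55). Its ligand SEMA3E rose slightly in the same libraries, so that SEMA3E and PLXND1, at 6.85 and 6.18 CPM per kb in control, stood at 8.21 and 1.80 CPM per kb in OC2-OE. PLXNC1 was at 1.10 to 2.03 CPM in all libraries and did not pass.

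Class A plexins are the signalling partners of neuropilins and the direct receptors of class 6 semaphorins. PLXNA2 (chromosome 1, 208022242 to 208244384), the most abundant of them per kb over all libraries, was at 227, 219.6 and 231 CPM in control and at 113, 119 and 120.2 CPM in OC2-OE. It fell 1.93-fold (log2 fold change -0.95, SE 0.03, adjusted p = 1.41e-56), just below the size limit of 1 on the log2 scale. PLXNA4 (chromosome 7, 132123340 to 132648688) was sparse, at 2.46, 3.05 and 2.83 CPM in control and 0.783, 0.577 and 0.165 CPM in OC2-OE, the last of these from 3 counts (log2 fold change -2.42, SE 0.30, adjusted p = 1.97e-12). PLXNA1 and PLXNA3 rose, PLXNA3 from 46.2 to 48.6 CPM in control to 87.9 to 93.3 CPM in OC2-OE (log2 fold change 0.95) and PLXNA1 with a log2 fold change of 0.33. Together the 4 class A plexins summed to 27.0 and 24.4 CPM per kb, but their make-up differed. PLXNA2 made up 60.5% of that sum in control and 34.7% in OC2-OE, where PLXNA1 made up 33.3% and PLXNA3 31.8%. SEMA6A and SEMA6B, which bind PLXNA2 and PLXNA4, thus rose and fell respectively while both of these receptors fell.

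Class B plexins are receptors of class 4 semaphorins. PLXNB2 (chromosome 22, 50274979 to 50307646) was the most abundant of all 69 guidance genes per kb, and it was at 236, 241 and 249 CPM in control and at 169, 182 and 182 CPM in OC2-OE (log2 fold change -0.45, SE 0.03, adjusted p = 2.73e-29). PLXNB1, the SEMA4D receptor, was at 35.9 to 37.8 CPM in control and 36.0 to 36.6 CPM in OC2-OE, with a log2 fold change of -0.01 (SE 0.06). PLXNB3 (chromosome X, 153764196 to 153779346) was at 3.26, 3.88 and 3.32 CPM in control and at 16.4, 15.7 and 13.2 CPM in OC2-OE, a 4.33-fold rise (log2 fold change 2.11, SE 0.12, adjusted p = 1.52e-33). The neighbouring gene SRPK3 covers 20.4% of the exon bases of PLXNB3 on the same strand, where a read pair cannot be assigned to either, and had 756 counts in control and 715 in OC2-OE. SEMA4D thus rose beside a PLXNB1 that did not pass, and SEMA4C and PLXNB2, at 9.39 and 33.3 CPM per kb in control, stood at 6.48 and 24.4 CPM per kb in OC2-OE.

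All 8 ephrins were tested, of which 3 rose and 2 fell, and of 11 tested Eph receptors 4 rose and 6 fell. The background over all genes tested was 27.8% that rose and 28.7% that fell. EPHA4 (ENSG00000116106.12, chromosome 2, 221418027 to 221574202), a receptor that binds ephrins of both groups and repels motor axons, was at 29.8, 29.9 and 26.6 CPM in control and at 3.76, 4.56 and 4.23 CPM in OC2-OE. It fell 6.89-fold (log2 fold change -2.78, SE 0.10, adjusted p = 2.73e-53), the largest fall of the 57 genes. EPHA7 (chromosome 6, 93240020 to 93419687), a receptor of neural tube and cortical development, was at 22.1, 22.0 and 19.6 CPM in control and at 3.86, 4.21 and 3.73 CPM in OC2-OE (log2 fold change -2.43, SE 0.10, adjusted p = 3.72e-44). In both genes the highest OC2-OE library lay far below the lowest control library. EPHA6 (chromosome 3, 96814581 to 97761532) was low throughout, at 3.48, 3.41 and 2.77 CPM in control and at 1.15, 1.73 and 1.98 CPM in OC2-OE (log2 fold change -1.0002, SE 0.22, adjusted p = 1.93e-05). Without OC2-OE replicate 1 its adjusted p was 0.00185, the highest of 15 settings, of which the lowest was 1.60e-05.

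EPHA10 (chromosome 1, 37713880 to 37765133), a receptor whose kinase domain lacks activity, was at 17.3, 15.7 and 15.005 CPM in control and at 35.4, 36.3 and 34.9 CPM in OC2-OE. It rose 2.21-fold (log2 fold change 1.15, SE 0.07, adjusted p = 2.59e-32) with no overlap. EPHA1 (chromosome 7, 143390289 to 143408856), an epithelial Eph receptor, was at 4.92, 4.30 and 4.30 CPM in control and at 8.66, 10.3 and 9.44 CPM in OC2-OE (log2 fold change 1.06, SE 0.13, adjusted p = 3.17e-13). EPHA2, an epithelial receptor of EFNA1 studied in many carcinomas, rose from 8.19 to 9.20 CPM in control to 13.6 to 14.7 CPM in OC2-OE (log2 fold change 0.71). EPHA8 was at 1.61 to 2.21 CPM in control and at 1.62, 3.46 and 4.01 CPM in OC2-OE and did not pass (adjusted p = 0.00601). Without OC2-OE replicate 1 it passed, with a log2 fold change of 1.01 and an adjusted p of 3.85e-05, the lowest of 15 settings, of which the highest was 0.150. These shifts nearly cancelled in the EphA sum, at 10.7 and 11.3 CPM per kb. EPHA4 made up 35.5% of it in control and 4.89% in OC2-OE, whereas EPHA10 went from 18.3% to 38.6% and EPHA2 from 19.6% to 30.3%.

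**Figure D4:**
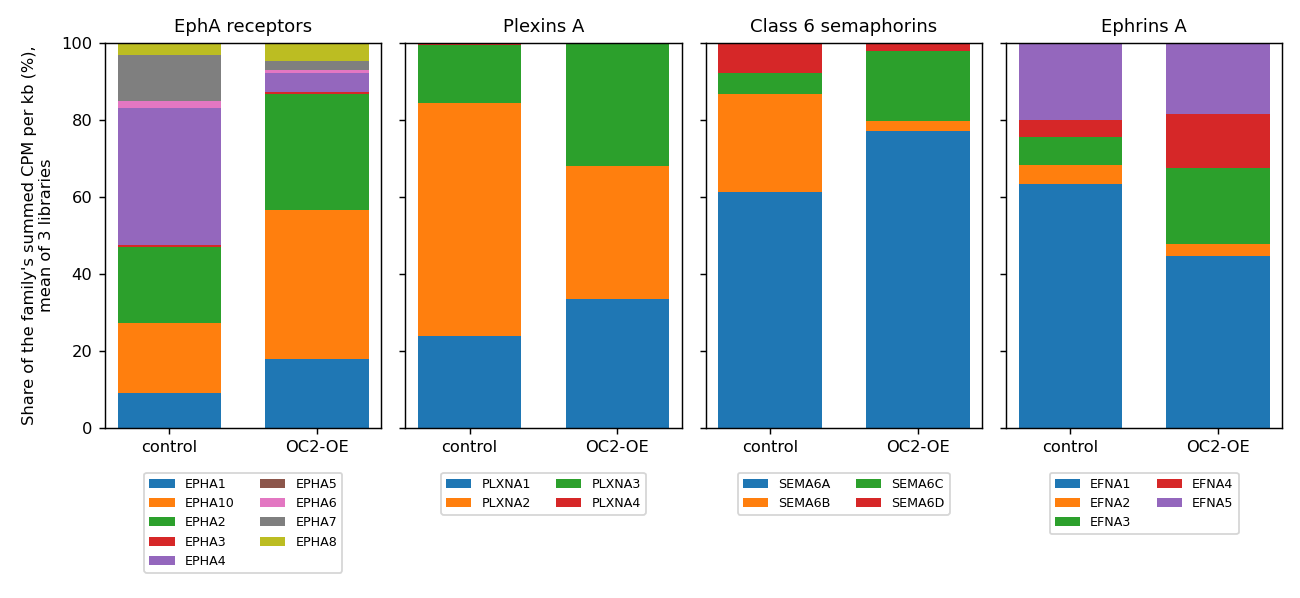
Share of each gene in the summed CPM per kb of its family (y axis, percent, means of 3 libraries) in control and OC2-OE for EphA receptors, class A plexins, class 6 semaphorins and ephrins A, on annotated exon length. EPHA4 and PLXNA2 lead their families in control, at 35.5% and 60.5%, and stand at 4.89% and 34.7% in OC2-OE.

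EphB receptors, which bind the transmembrane ephrins B, were lower as a sum, at 19.5 CPM per kb in control and 9.88 CPM per kb in OC2-OE. EPHB2 (ENSG00000133216.17, chromosome 1, 22710839 to 22921500), a receptor of synapses and intestinal crypts, was the most abundant Eph receptor per kb and was at 187, 179 and 191 CPM in control and at 88.2, 91.5 and 94.8 CPM in OC2-OE. It fell 2.03-fold (log2 fold change -1.02, SE 0.03, adjusted p = 3.79e-56). EPHB1 (chromosome 3, 134795260 to 135260467), which sorts retinal axons at the optic chiasm, was at 12.7, 13.3 and 13.3 CPM in control and at 2.45, 2.60 and 2.74 CPM in OC2-OE (log2 fold change -2.33, SE 0.13, adjusted p = 3.34e-34). Both genes were lower in each OC2-OE library than in any control library. EPHB3 had a log2 fold change of -0.49 and an adjusted p of 3.44e-05, which was 0.00257 without OC2-OE replicate 1 and between 1.76e-05 and 0.00257 over 15 settings. EPHB4 (chromosome 7, 100802565 to 100827523), the venous receptor of EFNB2, went the other way from 0.375, 0.777 and 0.984 CPM to 3.34, 2.94 and 2.91 CPM (log2 fold change 2.13, SE 0.27, adjusted p = 4.22e-12). It stayed sparse on a per-length scale, at 0.476 CPM per kb in OC2-OE. EPHB6 had 0 counts in all 6 libraries, which allows a level of up to 0.0282 CPM at 3 counts of the total.

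EFNB2 (chromosome 13, 106489745 to 106535662), the arterial ephrin that binds EPHB4, was at 6.53, 6.27 and 6.46 CPM in control and at 3.08, 1.62 and 2.91 CPM in OC2-OE (log2 fold change -1.33, SE 0.16, adjusted p = 1.89e-12). The groups did not overlap. EFNB1 (chromosome X, 68829021 to 68842160), the most abundant ephrin B per kb over all libraries and the gene of craniofrontonasal syndrome, was at 7.23, 8.37 and 7.502 CPM in control and at 9.34, 9.29 and 9.33 CPM in OC2-OE. The groups did not overlap, yet the adjusted p was 0.0195 and the gene did not pass. EFNB3 (chromosome 17, 7705202 to 7711372), a midline repellent of the corticospinal tract, was at 0.696, 1.37 and 0.799 CPM in control and at 1.98, 2.48 and 1.37 CPM in OC2-OE, and the groups overlapped at 1.37 CPM. Its log2 fold change of 1.03 (SE 0.28) passed at an adjusted p of 0.000816. It was above 0.001 in 6 of 15 settings, up to 0.0189, among them leaving out control replicate 1 (0.0129) or 3 (0.00673) or OC2-OE replicate 1 (0.00412) or 2 (0.0189).

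EFNA1 (chromosome 1, 155127876 to 155134899), a ligand of EPHA2 and the most abundant ephrin per kb, was at 18.6, 19.0 and 18.6 CPM in control and at 12.2, 11.6 and 12.1 CPM in OC2-OE (log2 fold change -0.65, SE 0.08, adjusted p = 1.23e-11). EFNA3 (chromosome 1, 155078837 to 155087538) lies 40.3 kb away from it and was at 1.82, 1.85 and 2.15 CPM in control and at 4.96, 4.85 and 4.45 CPM in OC2-OE (log2 fold change 1.29, SE 0.18, adjusted p = 3.33e-10). EFNA4 (chromosome 1, 155063737 to 155069553), 9.28 kb from EFNA3, was at 0.910, 0.538 and 0.799 CPM in control and at 2.92, 1.85 and 1.81 CPM in OC2-OE (log2 fold change 1.54, SE 0.29, adjusted p = 1.01e-06). In this ephrin cluster EFNA3 and EFNA4 thus rose while EFNA1 fell. The annotated read-through gene EFNA4-EFNA3 covers 43.9% of the exon bases of EFNA3 and 15.04% of those of EFNA4 and had 0 counts in every library, and read pairs within those bases are assigned to neither gene, so that the values of EFNA3 and EFNA4 leave them out. EFNA2 and EFNA5 did not pass, with log2 fold changes of -0.75 and -0.26. On annotated exon length, which includes the bases of EFNA3 and EFNA4 that receive no counts and so lowers their shares, EFNA1 went from 63.4% to 44.6% of the ephrin A sum, and EFNA3 with EFNA4 from 7.31% and 4.36% to 19.7% and 13.98%.

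Another cluster with opposite changes lies on chromosome 3, where SEMA3F and SEMA3B are 78.5 kb apart and SEMA3F fell while SEMA3B rose. On chromosome 7 SEMA3E, which rose, is 307 kb from SEMA3A, which fell, and SEMA3A is 503 kb from SEMA3D, also lower. On chromosome X PLXNB3 and PLXNA3, 679 kb apart, both rose.

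**Figure D5:**
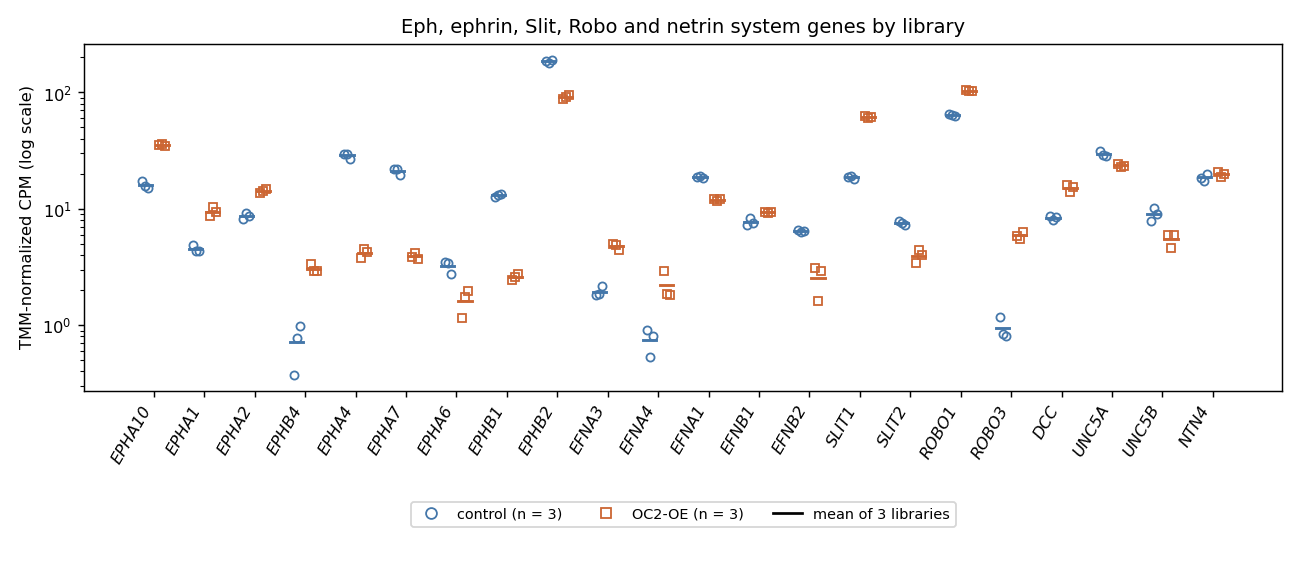
TMM-normalized CPM (y axis, log scale) of 22 Eph, ephrin, Slit, Robo, netrin and netrin receptor genes (x axis) in each control and OC2-OE library, with a line at the mean of 3 libraries. EPHA4, EPHA7 and EPHB1 separate by the widest gaps downwards and EPHB4, ROBO3 and SLIT1 upwards, and NTN4 overlaps.

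In the Slit and Robo system, 2 of 3 Slits and 2 of 4 Robos were tested. SLIT1 (ENSG00000187122.17, chromosome 10, 96998038 to 97185959), the Slit most restricted to the nervous system, was at 18.8, 19.1 and 18.1 CPM in control and at 63.2, 60.5 and 61.2 CPM in OC2-OE. It rose 3.30-fold (log2 fold change 1.72, SE 0.06, adjusted p = 2.77e-55). SLIT2, the paralogue silenced in many carcinomas, fell from 7.32 to 7.92 CPM in control to 3.44 to 4.39 CPM in OC2-OE (log2 fold change -0.95, SE 0.14). SLIT1 accordingly made up 74.8% of the Slit sum per kb in control and 95.0% in OC2-OE. ROBO1 (chromosome 3, 78597239 to 79767998), a receptor for both, was at 64.7, 63.8 and 62.3 CPM in control and at 104, 104 and 104 CPM in OC2-OE (log2 fold change 0.71, SE 0.04, adjusted p = 1.58e-34). ROBO3 (chromosome 11, 124865432 to 124881471), the divergent Robo needed for midline crossing of hindbrain axons, was at 1.18, 0.837 and 0.799 CPM in control and at 5.90, 5.54 and 6.31 CPM in OC2-OE. It rose 6.21-fold (log2 fold change 2.63, SE 0.20, adjusted p = 2.60e-23), and no libraries overlapped. It remained a minor part of the Robos, at 2.27% of their sum per kb in control and 8.26% in OC2-OE. SLIT3, ROBO2 and the endothelial ROBO4, which lies 2.22 kb from ROBO3, had 4, 19 and 2 counts over all libraries.

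In the netrin system no tested gene reached a log2 fold change of 1 in size. NTN4 (chromosome 12, 95657807 to 95791189), a basement membrane netrin that binds laminins, carried 94.9% of the netrin sum per kb in control and was at 18.5, 17.5 and 19.8 CPM there and at 20.9, 18.9 and 19.8 CPM in OC2-OE. The groups overlapped, with a log2 fold change of 0.09 (SE 0.07, adjusted p = 0.253). NTN1, the main DCC ligand, had 10 counts in control and 15 in OC2-OE and was not tested, nor were NTN3 with 36 and NTN5 with 9 counts in all. UNC5A (chromosome 5, 176810519 to 176880898), a repulsive and death-inducing netrin receptor, was at 31.5, 29.1 and 28.2 CPM in control and at 24.3, 23.0 and 23.5 CPM in OC2-OE (log2 fold change -0.33, SE 0.06, adjusted p = 2.66e-06). UNC5B fell as well (log2 fold change -0.71), and UNC5D was at 1.27 to 1.98 CPM with no call. DCC (chromosome 18, 52340197 to 53535903), the attractive receptor, rose from 7.95 to 8.67 CPM in control to 13.9 to 16.02 CPM in OC2-OE (log2 fold change 0.85, SE 0.10, adjusted p = 3.64e-14). DCC thus rose while UNC5A and UNC5B fell, and its share of the netrin receptor sum went from 7.09% to 15.1%.

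The genes left untested were 14 in all, 8 ligands and 6 receptors, and none exceeded 20 counts in any library. They are EPHA3, EPHA5, EPHB6, NTN1, NTN3, NTN5, ROBO2, ROBO4, SEMA3G, SEMA4A, SEMA5A, SEMA5B, SLIT3 and UNC5C. They were too sparse for the test at this depth, where 3 counts correspond to 0.157 to 0.184 CPM in a library. UNC5C had 1, 1 and 0 counts in control and 5, 3 and 7 counts in OC2-OE, and its groups did not overlap. UNC50, which matched by its letters, rose by a log2 fold change of 0.19, and UNC5CL did not pass.

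Since OC2 is a transcription factor, the RefSeq promoter windows of GRCh38.p14, from 250 bases before to 50 bases after a transcript start, were searched for the ONECUT core motifs ATCAAT and ATCGAT on both strands, on which ATCAAT reads ATTGAT and ATCGAT reads the same. Windows were at hand for 61 of the 71 genes, 93 in all. The counts leave out EFNB3, EPHA10, NRP1, NTN1, NTN3, SEMA3A, SEMA6A, SEMA6B, UNC5B and UNC5D, for which no window was at hand. The motif was in 8 windows of 8 genes, namely DCC, EPHA7, PLXNA4, ROBO1, ROBO3, SEMA3E, SEMA4D and SLIT1. This is 8.60% of the windows, against 6.96% of all 35116 windows. Windows of genes that rose held it in 6 of 33 (18.2%) and those of genes that fell in 2 of 25 (8.0%), and it was in none of the 16 windows of tested genes that did not pass and none of the 19 windows of untested genes. The 250 bases before the start are shown for the 4 of these genes whose window lies at or within 128 bases of the annotated gene start, 3 that rose and EPHA7, which fell 5.40-fold. They read 5′ to 3′ on the strand of the gene, from RefSeq, with the matched motif in capitals. DCC lies at chr18:52339947-52340196 on the plus strand, ROBO1 at chr3:79767999-79768248, SLIT1 at chr10:97185960-97186209 and EPHA7 at chr6:93419560-93419809, all 3 on the minus strand.
DCC: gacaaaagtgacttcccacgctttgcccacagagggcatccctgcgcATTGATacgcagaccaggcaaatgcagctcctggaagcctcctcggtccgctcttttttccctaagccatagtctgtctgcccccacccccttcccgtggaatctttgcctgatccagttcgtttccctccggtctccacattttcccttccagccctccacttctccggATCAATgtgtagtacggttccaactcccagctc
ROBO1: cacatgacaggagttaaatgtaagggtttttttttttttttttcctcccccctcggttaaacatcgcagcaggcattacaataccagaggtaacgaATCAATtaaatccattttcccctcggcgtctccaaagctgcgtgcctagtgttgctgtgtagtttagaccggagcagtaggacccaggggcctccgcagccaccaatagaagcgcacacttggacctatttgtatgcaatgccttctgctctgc
SLIT1: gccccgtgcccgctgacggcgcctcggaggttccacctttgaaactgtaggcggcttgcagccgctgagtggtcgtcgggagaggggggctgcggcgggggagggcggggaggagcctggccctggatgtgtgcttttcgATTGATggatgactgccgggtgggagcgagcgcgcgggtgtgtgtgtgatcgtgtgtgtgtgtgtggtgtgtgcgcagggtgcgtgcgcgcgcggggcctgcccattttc
EPHA7: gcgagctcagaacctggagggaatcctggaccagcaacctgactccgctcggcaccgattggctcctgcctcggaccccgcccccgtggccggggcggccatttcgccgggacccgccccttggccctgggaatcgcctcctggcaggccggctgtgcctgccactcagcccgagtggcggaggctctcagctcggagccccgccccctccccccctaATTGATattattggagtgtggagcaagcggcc
DCC holds matches at 203 and 33 bases before the start, ROBO1 at 154, SLIT1 at 110 and EPHA7 at 32. A match describes the letters only, and binding of OC2 was not measured in these libraries.

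Genes that act with the guidance receptors were taken from 4 lists written from general knowledge. Of 46 intracellular effectors 45 were tested, and 10 rose and 21 fell, where 27.8% of all genes tested rose and 28.7% fell. VAV3, a Rac exchange factor downstream of Eph receptors, fell from 19.0 to 22.9 CPM in control to 3.52 to 4.49 CPM in OC2-OE (log2 fold change -2.40). TIAM1, a Rac exchange factor bound by ephrins B and Eph receptors, rose from 9.50 to 10.3 CPM to 49.2 to 49.99 CPM (log2 fold change 2.31). CRMP1 and DPYSL2 to DPYSL5, the collapsin response mediators that relay SEMA3A, were named after their values had been seen. Their log2 fold changes ran from -1.40 for DPYSL2 to -0.34 for DPYSL4, and they were not tested as a set.

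Of 13 growth factor and integrin partners 11 were tested, and 4 rose and 5 fell, beside 27.8% and 28.7% of all genes tested. KDR and FLT1, the VEGF receptors that NRP1 assists, fell from 9.41 to 12.01 CPM in control to 1.39 to 1.81 CPM in OC2-OE (log2 fold change -2.77) and from 9.31 to 11.4 CPM to 1.57 to 2.31 CPM (log2 fold change -2.47). The ligands VEGFA, VEGFB, VEGFC and PGF were named after their values had been seen. VEGFA rose from 72.8 to 145.8 CPM on average (log2 fold change 1.00). VEGFB fell from 110.5 to 69.1 CPM on average (log2 fold change -0.68), PGF did not pass and VEGFC was not tested. VEGFD rose from 24 to 96 counts (log2 fold change 1.90). It met the minimum count in every OC2-OE library but not in every control library, so its test rests in part on the group in which it was high. Among endothelial markers, CDH5 fell from 52 to 3 counts and ERG from 208 to 52 counts in the same libraries. CDH5 met the minimum count in the control libraries only, so it was tested through the group in which it was high. PECAM1 was at 2.39 and 2.46 CPM on average and did not pass. VWF went the other way from CDH5 and ERG, from 1 to 17 counts. TEK had 2 counts and TIE1 1 count in control and neither had any in OC2-OE, and CLDN5 had 18 and 10 counts. VWF, TEK, TIE1 and CLDN5 were not tested. In control NRP1 was at 130.4 CPM on average and the 7 endothelial markers together at up to 8.72 CPM. The part of these markers in the falls of NRP1, PLXND1, KDR and FLT1 was not tested.

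Of 9 proteases that process guidance proteins 8 were tested, and 4 rose and 2 fell. MMP14 rose from 1.79 to 2.84 CPM to 5.27 to 6.92 CPM (log2 fold change 1.41). ADAM17, a sheddase, rose with a log2 fold change of 0.69. FURIN, the convertase that matures class 3 semaphorins, fell from 432 to 451 CPM to 227 to 231 CPM (log2 fold change -0.95). Of 30 other guidance cues and receptors 21 were tested, and 9 rose and 4 fell. NTNG2, a membrane-anchored netrin G, rose from 25 to 186 counts (log2 fold change 2.79), and FLRT2, which binds UNC5 receptors, from 2.77 to 2.997 CPM to 15.9 to 16.97 CPM (log2 fold change 2.51). NTNG2 met the minimum count in every OC2-OE library but not in every control library, so its test rests in part on the group in which it was high. DSCAML1, an adhesion protein of the DSCAM family, fell from 16.3 to 18.9 CPM to 3.68 to 5.11 CPM (log2 fold change -2.06). The share of called genes on these 4 lists was 68.9%, 81.8%, 75.0% and 61.9% in the order given, beside the 56.5% of all genes tested. That 56.5% is made up of 27.8% that rose and 28.7% that fell.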

How the data were processed

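Stranded poly(A) RNA libraries, 3 control and 3 OC2-OE, were sequenced, aligned with STAR 2.7.9a per the submitters' processing notes, and counted by the authors with featureCounts 1.6.0 on GENCODE 42 (GRCh38). The deposited values are raw counts of read pairs per gene, with the gene's exon length, and were not normalized. Read pairs on exons of 2 genes of the same strand are not assigned.

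Counts were normalized with TMM in edgeR 4.0.16 (R 4.3.3), genes were kept with filterByExpr (minimum count 10), and its quasi-likelihood test (robust, Benjamini-Hochberg adjustment) was run on 17307 genes. The threshold of 0.001 is that of the study. The standard error (SE) is the size of the log2 fold change over the root of F. Libraries of 16533284 to 19099337 counts gave a biological coefficient of variation of 2.20%. Count limits cover counting error only. Libraries of a group differed by more than sampling noise (chi-square per gene 1.31 to 2.10). Steps were tested on simulated data.

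The genes and lists were chosen with earlier results of these data known. Named in full are the called genes with a log2 fold change of 1 or more in size and the most abundant gene per kb of each family. On each pathway list the 3 largest changes are named. Other genes are given by range or count, apart from those said to be named after their values had been seen. A gene that this rule names on the list of effectors is not reported here. Alternatives were other scalings, filters and thresholds, DESeq2 1.42.0, limma 3.58.1 (voom), the replicate number as a block and each library left out. The symbol matches UNC50 and UNC5CL and genes sharing over 10% of exon bases were left out in alternatives chosen after seeing the data.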

Additional observations from a re-analysis of the deposited data

How the results depend on the processing

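Over 19 alternatives the number of matched genes (UNC50 and UNC5CL included unless left out) that rose stayed between 21 and 27 and the number that fell between 18 and 24, except with a log2 fold change of 1 or more in size, which left 13 and 11. The same 57 calls were made with DESeq2's size factors, without the filter on low counts, without ONECUT2 in the counts and with the replicate number as a block. With the replicate block, 24 genes rose and 22 fell. Same-numbered libraries hardly deviated together (correlations of 0.01, 0.04 and 0.02), although each library correlated best with its own number, so the libraries were not treated as pairs. Library size only moved the median log2 fold change of the matched genes by 0.05. The Wald test of DESeq2 gave 23 and 20, and limma voom 23 and 21. PLXNB1, which has no call, changed sign to 0.040 with library size only and to 0.032 with upper-quartile scaling, and when 1 library was left out it lay between -0.024 and 0.0088. UNC5D, also without a call, lay between -0.13 and 0.18. EFNB3, NRP2 and SEMA3D lost their calls in 6, 8 and 8 of 15 settings, and EPHA6, EPHB3 and SEMA3B in 1 each, and EPHA8 gained one. The cause was not tested. Genes that are sparse in 1 group, such as EFNA4, EPHB4 and PLXNA4, have wide errors. With TPM in place of CPM per kb, the 8 ratios of summed levels ran from 0.721 to 2.67 instead of 0.701 to 2.60.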
